A study of Mus musculus with 5 samples.

Results

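NF-kB is a family of transcription factors held in check by its own inhibitors, and 10 of its genes, of the 55385 genes in the count files, were followed here through the hours after a seizure. They were the DNA-binding subunits Nfkb1, Nfkb2, Rel, Rela and Relb, the cytoplasmic inhibitors Nfkbia and Nfkbib, the nuclear IkB proteins Nfkbiz and Bcl3, and Tnfaip3, which encodes the ubiquitin-editing enzyme A20. They were chosen by gene symbol, and each symbol matched 1 identifier. The 10 genes were among the 19768 that passed the filter on low counts. Bcl3 passed it through replicate 1 at 4 h and the 8 h library. Its 6 counts in the control, 3 at 1 h and 10 in replicate 2 at 4 h were under the filter's cutoff.

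Hippocampal RNA came from male C57/bl6 mice 3 months old. A control library was made from untreated mouse hippocampus, and 4 libraries came from mice injected intraperitoneally with kainic acid at 20 mg/kg, a glutamate receptor agonist that provokes seizures. These mice were killed 1 h, 4 h or 8 h after seizure onset, with replicates 1 and 2 at 4 h and 1 library at each of the other times. Mice whose seizures stayed below stage 5 had been left out, and no injected control was sequenced, so that injection and kainic acid cannot be told apart. The control library had 19100374 reads on genes, the 1 h library 17744508, replicates 1 and 2 of the 4 h pair 18250114 and 19109204, and the 8 h library 16612225.

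As background, NF-kB proteins bind DNA as dimers, and in resting cells IkB proteins keep most dimers in the cytoplasm. Receptors for cytokines and microbial products activate the IKK kinases, which mark IkB for degradation and so free the dimers, while NIK drives a slower route through the precursor made from Nfkb2. Several inhibitors are themselves NF-kB target genes and close a negative feedback loop. In brain, NF-kB is best known from microglia, astrocytes and endothelium, and activity at synapses has also been described as a trigger in neurons.

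Because several of these genes are textbook targets of NF-kB, the promoters were searched for the NF-kB consensus decamer, the kB site. RefSeq promoters on GRCm38.p6 (250 bases before to 50 after a start site) were found for 7 of the 10 genes, and Nfkb1, Relb and Nfkbiz were not matched. A kB match stood in 5 of the 7, counting both strands and overlapping matches, and in 7 of their 10 windows, of which 3 were windows of Nfkb2. Of all 27025 genes with such windows 9.55% had a match, and of all 32851 windows 8.46%. Promoters of the inhibitor Nfkbia (chr12:55492598-55492897, minus strand), of Rel (chr11:23770920-23771219, minus strand), of Nfkb2 (chr19:46304487-46304786, plus strand) and of Tnfaip3 (chr10:19015361-19015660, minus strand) are shown, since the first 3 belong to genes with higher counts at 4 h and the last to a gene with lower counts. Capitals mark the kB matches, and each line reads 5′ to 3′ along the gene's strand.
Nfkbia: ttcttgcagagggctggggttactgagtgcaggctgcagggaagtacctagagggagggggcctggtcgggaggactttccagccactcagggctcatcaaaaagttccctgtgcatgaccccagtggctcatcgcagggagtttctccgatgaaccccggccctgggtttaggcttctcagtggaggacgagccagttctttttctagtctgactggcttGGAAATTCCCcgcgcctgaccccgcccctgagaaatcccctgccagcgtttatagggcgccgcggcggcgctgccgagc
Rel: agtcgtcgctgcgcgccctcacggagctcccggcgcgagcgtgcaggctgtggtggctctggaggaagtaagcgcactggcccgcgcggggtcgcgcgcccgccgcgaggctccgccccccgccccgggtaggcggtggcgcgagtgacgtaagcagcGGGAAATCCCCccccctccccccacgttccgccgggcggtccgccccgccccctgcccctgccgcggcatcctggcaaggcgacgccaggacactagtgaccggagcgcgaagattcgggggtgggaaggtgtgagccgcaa
Nfkb2: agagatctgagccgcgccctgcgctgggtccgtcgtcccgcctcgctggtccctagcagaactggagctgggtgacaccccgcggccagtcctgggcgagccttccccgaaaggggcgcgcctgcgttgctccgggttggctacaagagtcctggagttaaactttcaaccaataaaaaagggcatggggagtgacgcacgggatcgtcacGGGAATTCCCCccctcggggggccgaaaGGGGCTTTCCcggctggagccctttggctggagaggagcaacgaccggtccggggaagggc
Tnfaip3: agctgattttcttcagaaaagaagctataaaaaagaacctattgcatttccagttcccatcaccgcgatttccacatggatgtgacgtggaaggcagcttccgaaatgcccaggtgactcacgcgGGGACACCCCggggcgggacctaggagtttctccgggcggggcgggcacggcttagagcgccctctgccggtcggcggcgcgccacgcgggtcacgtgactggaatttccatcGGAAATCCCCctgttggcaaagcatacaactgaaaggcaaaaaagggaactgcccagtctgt

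The Nfkbia match lay 29 to 20 bases before the start site. In Rel 2 matches overlapped by all but 1 base, between 92 and 82 bases before the start. The first Nfkb2 window had 3 positions, of which the nearest ended 2 bases before the start, and its other 2 windows held 2 and 1, with 1 site shared between them. Tnfaip3 had a match 12 to 3 bases before the start and another, farther upstream, that ended 116 bases before it, and its second window had none. In Bcl3 (chr7:19822706-19823005, minus strand) the match lay 3 to 12 bases after the start, shown here with its flanks.
Bcl3: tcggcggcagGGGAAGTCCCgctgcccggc
The windows of Rela and Nfkbib held no match. Of the genes with a match, Nfkbia, Rel, Nfkb2 and Bcl3 were above the control in both replicates at 4 h, and Tnfaip3 was below it in both. Of those without, Rela and Nfkbib were above it in both. Counting error alone could cover the difference in at least 1 replicate for Nfkb2, Bcl3, Tnfaip3, Rela and Nfkbib. A link between matches and levels was not tested. These matches are descriptions of letters, and binding was not measured.

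The libraries were first compared by genes that mark seizure activity and cell types, because the replicates at 4 h were not alike. Fos, an immediate early gene, stood at 10.8 normalized CPM (counts scaled by the TMM-adjusted library size) in the control, 999.2 at 1 h, 519 and 70.4 in replicates 1 and 2 at 4 h, and 17.2 at 8 h. Npas4, an activity-dependent transcription factor, was at 3.92, 694 and 130.01 CPM in the control, at 1 h and in replicate 1, but at 4.92 in replicate 2 and 5.13 at 8 h. Replicate 1 thus had higher levels of early activity genes than replicate 2, as was also seen for Arc (2593 and 928 CPM), Egr1 (99.1 and 30.9) and Bdnf (754 and 316). The 5 choroid plexus markers summed to 3995 CPM in the control, 1692 at 1 h, 29.2 in replicate 1, 4267 in replicate 2 and 3091 at 8 h, with Ttr as the most abundant gene (3747 CPM in the control and 16.3 in replicate 1). Choroid plexus RNA was therefore nearly missing from replicate 1, and its level at 1 h was 0.424 times that of the control. Levels of the 10 genes at 4 h are given below for both replicates, and the part that tissue makeup or seizure activity had in the differences was not tested.

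**Figure D1:**
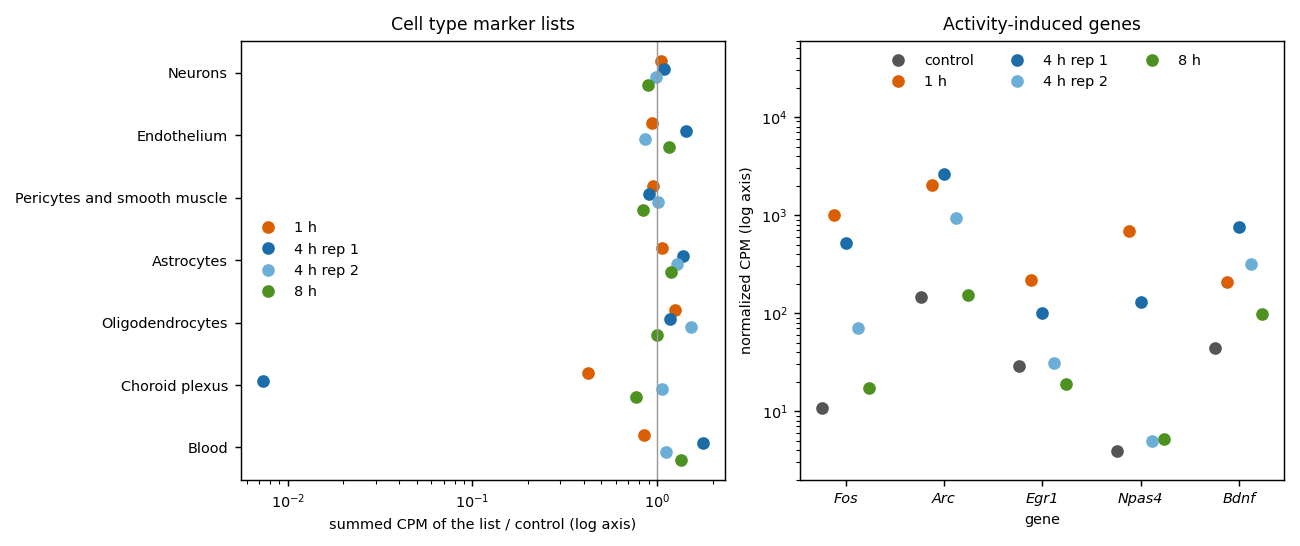
The left panel plots the summed normalized CPM of 7 cell type marker lists relative to the control on a log axis, 1 point per kainic acid library, and the right panel plots the normalized CPM of 5 activity-induced genes in each library on a log axis. Replicate 1 at 4 h is at 0.0073 times the control for choroid plexus, and it lies above replicate 2 for each of the 5 activity genes.

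Levels between genes were compared per kilobase of exon, with the length of a gene taken as the union of all its annotated exons. Nfkbia had the highest mean level over the 5 libraries (20.9 ± 8.0 CPM per kb, SD), followed by Rela (5.24 ± 1.02), Nfkbib (4.53 ± 0.32), Nfkbiz (3.36 ± 1.78) and Nfkb1 (3.23 ± 0.74). Lower down came Relb (1.60 ± 0.29), Tnfaip3 (1.02 ± 0.14), Nfkb2 (0.86 ± 0.41), Rel (0.82 ± 0.35) and Bcl3 (0.31 ± 0.26). Nfkbia exceeded Rela in 5 of 5 libraries, and the same held for Nfkb1 over Relb, Relb over Tnfaip3 and Rel over Bcl3. Neighbours that changed places between libraries were Rela and Nfkbib (first higher in 4 of 5), Nfkbib and Nfkbiz (4 of 5), Nfkbiz and Nfkb1 (2 of 5), Tnfaip3 and Nfkb2 (3 of 5) and Nfkb2 and Rel (3 of 5). By this measure RNA of the inhibitor Nfkbia was thus the most abundant per length in the hippocampus at each time, and RNA of Bcl3 the least. The order depends on the lengths used. Nfkb1, with the longest union (12061 bases), had the highest CPM of these genes before division by length, except in replicate 2 at 4 h.

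**Figure D2:**
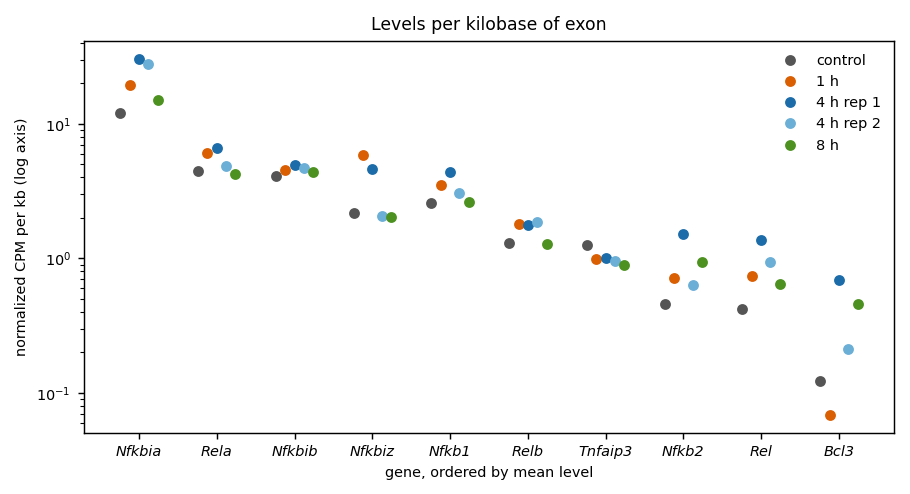
Normalized CPM per kilobase of exon is plotted on a log axis for each gene, ordered by mean level, with 1 point per library. Nfkbia lies above the other 9 genes in each library, and Bcl3 spans the widest range, 10.1-fold from 1 h to replicate 1 at 4 h.

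For each gene the values are its normalized CPM in each library, its ratio to the control with an exact binomial 95% interval that covers counting error only, and its fitted log2 fold change. No gene of the 10 was called at an adjusted p under 0.05 by edgeR's quasi-likelihood test in any comparison. Over all genes that test called 0% at 1 h, 0.00506% at 4 h and, for 8 h against the control, 0%, with 0.00506% for 4 h against 1 h and 0% for 8 h against 4 h. The gene called at 4 h, named after its values were seen, was ETV3L. At an unadjusted p under 0.05 edgeR held 2.42% of all genes at 1 h, 11.6% at 4 h, 4.51% at 8 h, 7.94% at 4 h against 1 h and 8.73% at 8 h against 4 h. Among the 10 genes these counts were 1 (Nfkbia), 2 (Nfkbia and Rel), 0, 1 (Nfkbia) and 1 (Nfkbia). DESeq2 called 0.283%, 1.2%, 0.167%, 0.551% and 0.653% of all genes in the same order, and of the 10 it called Nfkbia at 4 h and none in the other comparisons, with no adjusted p for Bcl3. The single libraries were assumed to vary like the pair at 4 h, and no source used here says that the libraries came from separate animals. The p-values measure only the spread between the samples of that pair, combined with the typical spread over all genes. No spread was measured in the control, at 1 h or at 8 h.

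Nfkbia encodes IkBa, the inhibitor that is degraded on activation and then made anew. Its RNA (ENSMUSG00000021025.8, chr12:55489410-55492647 on GRCm38) was at 19.3 CPM in the control, 31.4 at 1 h, 49.1 and 44.6 in replicates 1 and 2 at 4 h, and 24.0 at 8 h. Both replicates at 4 h were above every other library, with 1 h between them and the control and 8 h closer to the control. The ratio to the control was 1.63 at 1 h (1.43 to 1.86), 2.55 (2.25 to 2.88) and 2.31 (2.05 to 2.62) in the replicates at 4 h and 1.24 at 8 h (1.08 to 1.43). At 4 h the fitted log2 fold change was 1.28 ± 0.22 (SE), higher in 2 of 2 replicates, with an adjusted p of 0.255 in edgeR and 0.0382 in DESeq2, over a range of 0.000224 (edgeR without the filter on low counts) to 0.327 in the alternatives. By p, Nfkbia ranked 127 of 19768 genes at 4 h. At 1 h it was 0.70 ± 0.24 (edgeR, adjusted p of 1). From 4 h to 8 h the fitted log2 difference was -0.96 ± 0.22 (edgeR, adjusted p of 0.463, with a range of 0.0147 without the filter on low counts to 0.542). Replicates 1 and 2 differed 1.1-fold, less than either differed from the control.

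**Figure D3:**
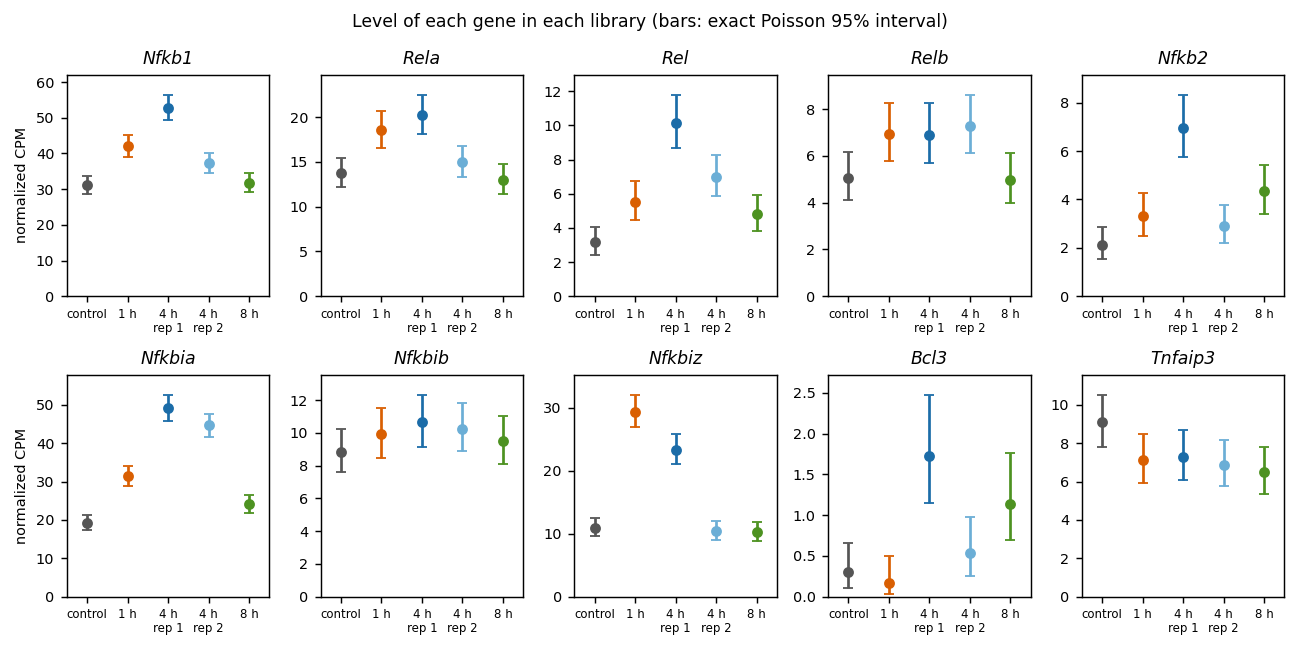
Normalized CPM is plotted from 0 for each of the 10 genes in the control, 1 h, 4 h (replicates 1 and 2) and 8 h libraries, with exact Poisson 95% intervals. Nfkbia is highest in both replicates at 4 h, Nfkbiz at 1 h, and Tnfaip3 in the control.

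Nfkbib encodes IkBb, a second cytoplasmic inhibitor (ENSMUSG00000030595.15, chr7:28758251-28767512). It was at 8.84 CPM in the control, 9.90 at 1 h, 10.6 and 10.3 in the 4 h pair and 9.47 at 8 h. The 5 libraries stayed within 1.20-fold of each other, and the interval of each ratio to the control included 1. The widest of these, in replicate 1 at 4 h, ran from 0.971 to 1.49, so a change of more than 1.49-fold lay outside the counting interval there. Its fitted log2 fold change at 4 h was 0.24 ± 0.28 (edgeR, adjusted p of 0.763). Of its exon bases 16.4% also lie within genes of the other strand, and its counts may include their reads if strand was not used in counting. The 2 cytoplasmic inhibitors therefore had different profiles over these libraries, although the difference between them was not tested.

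Rel encodes c-Rel, a subunit with a transactivation domain that is best known from lymphocytes (ENSMUSG00000020275.9, chr11:23736847-23770970). Its level was 3.17 CPM in the control, 5.52 at 1 h, 10.2 and 6.98 in the 4 h pair and 4.79 at 8 h. Each kainic acid library was above the control, and both replicates at 4 h were above the other libraries. The ratio to the control was 1.74 at 1 h (1.26 to 2.43), 3.21 (2.39 to 4.35) and 2.21 (1.62 to 3.03) at 4 h and 1.51 at 8 h (1.08 to 2.13). At 4 h its fitted log2 fold change was 1.40 ± 0.42 (edgeR, adjusted p of 0.352), higher in 2 of 2 replicates. Over the alternatives its adjusted p ranged from 0.0335 (edgeR without the filter on low counts) to 0.531. Replicates 1 and 2 were 1.45-fold apart, which was less than the distance of replicate 2 from the control.

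Nfkb2 encodes p100, the precursor of p52 in the slower route (ENSMUSG00000025225.15, chr19:46304320-46312385). Its level was 2.11 CPM in the control, 3.30 at 1 h, 6.95 and 2.91 in the 4 h pair and 4.34 at 8 h. Replicate 1 stood above every other library, whereas replicate 2 lay below the 1 h library and its interval overlapped that of the control. The ratios were 1.56 (1.03 to 2.38), 3.29 (2.30 to 4.80), 1.38 (0.906 to 2.11) and 2.05 (1.39 to 3.07). The 2.39-fold gap between replicates was wider than the gap between replicate 2 and the control, and the fitted log2 fold change at 4 h was 1.18 ± 0.64 (edgeR, adjusted p of 0.520). Without replicate 1 it was 0.44, and without replicate 2 it was 1.67. Other genes lie on the opposite strand over 18.1% of the Nfkb2 exons, and whether counting used strand is not given in the sources used here.

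Nfkb1 encodes p105, the precursor of p50 (ENSMUSG00000028163.17, chr3:135584655-135691547). Its level was 31.1 CPM in the control, 42.1 at 1 h, 52.9 and 37.2 in the 4 h pair and 31.7 at 8 h. The 1 h and both 4 h libraries were above the control, and 8 h was level with it, at a ratio of 1.02 (0.906 to 1.14). The replicates were 1.42-fold apart, more than replicate 2 was from the control (1.20-fold, 1.07 to 1.33). Fitted log2 fold changes were 0.44 ± 0.31 at 1 h and 0.53 ± 0.28 at 4 h (edgeR, adjusted p of 1 and 0.514).

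Rela encodes p65, the subunit that carries most transactivation in the classical route (ENSMUSG00000024927.8, chr19:5637483-5648130). Its level was 13.8 CPM in the control, 18.5 at 1 h, 20.3 and 15.0 in the 4 h pair and 13.01 at 8 h. Its profile had the shape of that of Nfkb1, its usual partner, with the 1 h library and replicate 1 high and replicate 2 near the control (ratio 1.09, 0.917 to 1.29). The fitted log2 fold change at 4 h was 0.35 ± 0.30 (edgeR, adjusted p of 0.671).

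Relb, the subunit that pairs with p52 (ENSMUSG00000002983.17, chr7:19606217-19629438), was at 5.07 CPM in the control, 6.94 at 1 h, 6.89 and 7.30 in the 4 h pair and 4.96 at 8 h. Here the replicates were within 1.06-fold, and the 1 h and 4 h libraries formed a group above the control and 8 h libraries. The ratios at 1 h and 4 h were 1.37 (1.04 to 1.80), 1.36 (1.03 to 1.79) and 1.44 (1.104 to 1.88), and at 8 h 0.978 (0.726 to 1.32). The fitted log2 fold change at 4 h was 0.47 ± 0.34 (edgeR, adjusted p of 0.613).

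Nfkbiz encodes IkBz, a nuclear IkB protein that acts as a cofactor at a subset of target genes (ENSMUSG00000035356.17, chr16:55811375-55838899). Its level was 10.95 CPM in the control, 29.4 at 1 h, 23.3 and 10.4 in the 4 h pair and 10.2 at 8 h. The 1 h library and replicate 1 were high, and replicate 2 and the 8 h library lay at the control level. The ratio at 1 h was 2.68 (2.28 to 3.15), the highest of the 10 genes at that time, and at 4 h it was 2.13 (1.80 to 2.53) in replicate 1 and 0.946 (0.776 to 1.15) in replicate 2. At 1 h its fitted log2 fold change was 1.41 ± 0.58 (edgeR, adjusted p of 1), and its adjusted p ranged from 0.0104 (edgeR without the filter on low counts) to 1 over the alternatives. At 4 h it was 0.62 ± 0.51 with both replicates (edgeR, adjusted p of 0.665), -0.08 without replicate 1 and 1.08 without replicate 2, so that its direction at 4 h rested on replicate 1. As for Fos and Npas4, the 1 h library was the highest and replicate 1 the next, and the part of seizure activity in it was not tested.

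Bcl3, a nuclear IkB protein that binds p50 and p52 dimers (ENSMUSG00000053175.17, chr7:19808462-19822770), had 6 counts in the control, 3 at 1 h, 29 and 10 in the 4 h pair and 20 at 8 h. These were levels of 0.301, 0.171, 1.72, 0.529 and 1.14 CPM. Replicate 1 and the 8 h library were above the control beyond counting error, with ratios of 5.71 (2.33 to 16.8) and 3.78 (1.47 to 11.5), while replicate 2 was not (1.75, 0.578 to 5.87). At 1 h the ratio was 0.566 (0.0916 to 2.65), and no difference was detectable at this depth. Of its exon bases 6.5% also lie within a gene of the other strand. Fitted log2 fold changes were 1.58 ± 1.01 at 4 h and 1.60 ± 1.11 at 8 h (edgeR, adjusted p of 0.527 and 1.00). The value at 4 h was 0.64 without replicate 1 and 2.15 without replicate 2.

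Tnfaip3 was below the control in each kainic acid library. A20, its product, removes activating ubiquitin chains in the pathway, and the gene (ENSMUSG00000019850.11, chr10:19000910-19015657) is a textbook NF-kB target. Its level was 9.09 CPM in the control, 7.11 at 1 h, 7.31 and 6.87 in the 4 h pair and 6.503 at 8 h. The control was the highest library, and the 4 kainic acid libraries lay close together below it. The ratios were 0.782 (0.618 to 0.988) at 1 h, 0.803 (0.634 to 1.02) in replicate 1 and 0.756 (0.599 to 0.952) in replicate 2 at 4 h, and 0.715 (0.561 to 0.909) in the 8 h library. Fitted log2 fold changes were -0.35 ± 0.30 at 4 h and -0.48 ± 0.36 at 8 h (edgeR, adjusted p of 0.675 and 1.00). In bulk tissue, fewer cells of a type and less RNA per cell cannot be told apart. Of the microglial markers, Csf1r was at 85.0 CPM in the control, 86.5 at 1 h, 82.3 and 82.1 in the 4 h pair and 74.4 at 8 h, and Cx3cr1 was at 32.1, 34.1, 24.9, 24.2 and 36.7 CPM in the same order. P2ry12 (31.9, 29.7, 13.9, 17.8 and 20.8 CPM) was, like Tnfaip3, below the control in each kainic acid library, and C1qa (23.1, 27.9, 32.4, 29.1 and 28.8 CPM) above it.

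**Figure D4:**
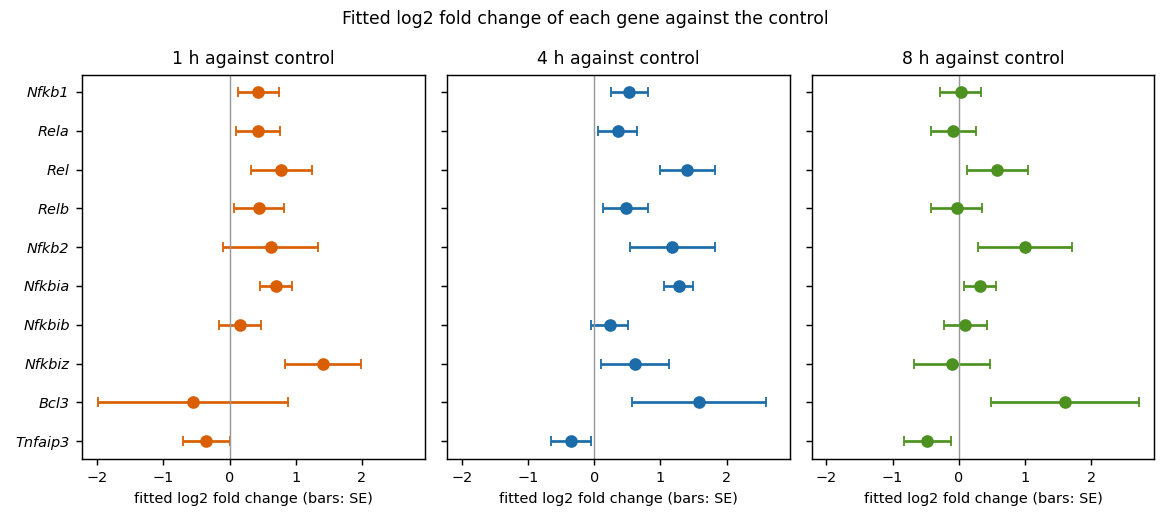
Fitted log2 fold changes against the control are plotted for each gene at 1 h, 4 h and 8 h, with bars for the SE of the edgeR fit, taken without the prior count. Rel, Nfkbia, Nfkb2 and Bcl3 are above 1 at 4 h, Nfkbiz is above 1 at 1 h, and Tnfaip3 is below 0 at each time.

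Counted by size, 4 of the 10 genes were at least 1.5 times the control at 1 h (Nfkb2, Rel, Nfkbia and Nfkbiz), where 10.9% of all genes were. At 4 h, 3 were so in both replicates (Rel, Nfkbia and Bcl3), against 10.1% of all genes, and Bcl3 was among them with 10 counts in replicate 2 against 6 in the control. In replicate 1 alone there were 6 (21.1% of all genes) and in replicate 2 alone 3 (13.8%). At 8 h there were 3 (Nfkb2, Rel and Bcl3), against 14.1%. In the other direction, at most the control divided by 1.5, there was 1 gene at 1 h (Bcl3, with 3 counts; 9.25% of all genes), 0 at 4 h in both replicates (6.28%), 0 in replicate 1 (16.8%), 0 in replicate 2 (10.7%) and 0 at 8 h (8.98%). Bcl3 passed the filter through replicate 1 at 4 h and the 8 h library, so that its place in the counts at those times depends on the filter. Without Bcl3, 2 genes remain in both replicates at 4 h and 2 at 8 h. The rule of 1.5 was set after the values were seen, and in a set of this size 1 gene is 10%. The 5 comparisons share libraries, so that counts at different times are not independent.

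The spread between the replicates gave a second measure. Both replicates at 4 h lay on the same side of the control for 9 of the 10 genes, Nfkbiz being the exception, and for 76.5% of the 19610 tested genes with counts in every library. For 5 genes (Rel, Relb, Nfkbia, Nfkbib and Tnfaip3) the nearer replicate was farther from the control than from the other replicate. Among the same 19610 genes this share was 43.3%, so the 5 of 10 was close to the background. At 1 h the median log2 fold change of the 10 genes was 0.44, at 4 h 0.57 and at 8 h 0.06, where the medians of all genes tested were -0.0050, 0.0098 and 0.0091. Without replicate 1 the median at 4 h was 0.35, and without replicate 2 it was 0.92. Fitted values were above 0 for 8, 9 and 6 of the 10 genes and for 9712, 10033 and 10103 of all 19768.

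Between times, the fitted log2 difference from 1 h to 4 h was above 0 for Bcl3 (2.13 ± 1.15), Rel (0.62 ± 0.40), Nfkbia (0.58 ± 0.21) and Nfkb2 (0.56 ± 0.62), and below 0 for Nfkbiz (-0.80 ± 0.48), with the other 5 genes between -0.08 and 0.10. Without replicate 1 the difference was 1.19 for Bcl3, 0.33 for Rel and -1.49 for Nfkbiz, and without replicate 2 it was 2.70, 0.87 and -0.33. Of the 10 genes only Nfkbia had an unadjusted p under 0.05 (edgeR, adjusted p of 0.599). The sign turned with the replicate left out for Nfkb1, Nfkb2, Rela, Relb and Tnfaip3. From 4 h to 8 h the difference was below 0 for 9 of the 10 genes, among them Rel (-0.82 ± 0.40), Nfkbiz (-0.72 ± 0.51) and Nfkb1 (-0.51 ± 0.28), and 0.03 ± 0.84 for Bcl3. Without replicate 1 it was -0.02 for Nfkbiz and -0.23 for Nfkb1, and without replicate 2 it was -1.18 and -0.74. For Nfkb2 and Bcl3 the sign again turned with the replicate left out.

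Among the other genes of the pathway no gene was called by edgeR in any list against the control. Of the 2 other IkB genes, Nfkbie was at 1.46, 1.99, 3.03, 3.07 and 2.57 CPM from the control through 1 h, replicates 1 and 2 at 4 h, and 8 h. Nfkbid, a nuclear IkB, was at 2.26, 6.43, 2.44, 1.48 and 2.28 CPM in the same order, so that it was high at 1 h alone. DESeq2 called neither at 4 h or 8 h and gave them no adjusted p at 1 h, and the fitted log2 fold changes at 4 h were 1.01 ± 0.47 and -0.20 ± 0.50.

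Of the 10 IKK kinases and their activators, 0 were called by either tool at any time (DESeq2 gave 9 of them an adjusted p), and the median log2 fold change at 4 h was 0.25. Map3k14, which encodes NIK, was at 4.32 CPM in the control, 8.99 at 1 h, 10.7 and 6.29 in the 4 h pair and 4.62 at 8 h, above the control at 1 h and 4 h and level with it at 8 h. Tab3 and Tbk1 were the next highest at 4 h, with log2 fold changes of 0.60 and 0.55. The lowest were Ikbkg, which encodes the scaffold NEMO (56.8, 51.0, 38.4, 40.4 and 55.7 CPM), and Ikbkb (42.1, 42.7, 37.3, 33.4 and 45.0 CPM), both below the other libraries in the pair at 4 h. Their log2 fold changes at 4 h were -0.53 ± 0.18 and -0.25 ± 0.20.

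Receptors and adaptors were mixed: 16 of 17 passed the filter, 0 were called by either tool (14 had an adjusted p in DESeq2 at 4 h), and the median at 4 h was 0.18. Tnfrsf1a, the main TNF receptor, was at 3.92 CPM in the control, 5.06 at 1 h, 15.5 and 9.41 in the 4 h pair and 8.33 at 8 h, which put each kainic acid library above the control. Tlr2 (log2 fold change 1.14 at 4 h; 0.904 CPM in the control, 2.79 in replicate 1 and 1.48 in replicate 2) and the IL-1 receptor Il1r1 (1.09 ± 0.25) followed, Il1r1 with 16.5 CPM in the control and 38.6 and 32.0 in the 4 h pair. The lowest at 4 h were Tradd and Irak1, at -0.73 and -0.40 (Tradd with 3.57 CPM in the control, 1.54 in replicate 1 and 2.64 in replicate 2).

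Ligand transcripts were rare. Of 8 genes 4 passed the filter, edgeR called 0, and DESeq2 gave none of the 4 an adjusted p. Il1a, Il1b and Tnf were under the filter's cutoff in the control and passed through kainic acid libraries, so that the median of the list (1.41 at 4 h) depends on the filter, and Tnfsf13b, the remaining gene, was at -0.59. Il1a, the only one with 50 normalized counts in a library, had 6 counts in the control, 50 at 1 h, 33 and 10 in the 4 h pair and 17 at 8 h. Tnf and Il1b were too low for the naming rule and named after their values were seen. Tnf had 0, 5, 22, 2 and 8 counts. It was at least 8.67-fold higher in replicate 1 than a floor of 3 counts for the control, and under that floor in replicate 2. Il1b had 2, 32, 10, 2 and 8 counts, with its highest count at 1 h. Each of these cytokines was thus higher in replicate 1 than in replicate 2.

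Of 9 other brakes on the pathway (deubiquitinases and A20 partners), 8 passed the filter and 0 were called by either tool (7 had an adjusted p in DESeq2), with a median at 4 h of 0.03. Tax1bp1, an A20 partner, stood at 185 CPM in the control and 221 and 223 in the 4 h pair, and Rnf11 and Otulin had log2 fold changes of 0.06 and 0.03. Cyld, a deubiquitinase, had 178 CPM in the control and 136 and 159 in the 4 h pair, and Tnip2 had 20.9 CPM in the control and 15.3 and 14.9 in the 4 h pair. Zc3h12a, too low for the naming rule and named after its values were seen, had 17 counts in the control, 30 at 1 h, 37 and 31 in the 4 h pair and 18 at 8 h.

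Of 22 textbook target genes 18 passed the filter, and edgeR called 0. DESeq2, which gave an adjusted p to 10 of them at 1 h and to 13 at 4 h and 8 h, called 1, 4 and 0 in that order, each higher than the control, beside 0.283%, 1.2% and 0.167% of all genes. Of the 4, Ccl3 and Ccl4 were under the filter's cutoff in the control and passed through kainic acid libraries, which leaves 2 (Ptgs2 and Gadd45b). Ptgs2, which encodes cyclooxygenase 2, was at 23.2 CPM in the control, 443 at 1 h, 672 and 244 in the 4 h pair and 58.6 at 8 h (log2 fold change 4.30 ± 0.71 at 4 h, DESeq2 adjusted p of 0.0171). Gadd45b, a stress-response gene also induced by activity, was at 7.24, 106, 152, 72.2 and 20.9 CPM (3.93 ± 0.54 at 4 h, DESeq2 adjusted p of 6.69e-16, and of 2.05e-11 at 1 h). The chemokine Ccl3 had 0 counts in the control, 9 at 1 h, 208 and 22 in the 4 h pair and 15 at 8 h, and Ccl4 had 3, 14, 221, 20 and 7 (DESeq2 adjusted p of 0.00660 and 0.0126 at 4 h). Replicate 1 was above replicate 2 for each of these 4 genes, and Ccl3 was at least 82.0-fold over the floor of the control in replicate 1 and at least 7.72-fold in replicate 2. The lowest with enough counts were Sod2 and Vcam1, at -0.18 and -0.17 (Vcam1 with 40.4 CPM in the control, 27.4 in replicate 1 and 44.4 in replicate 2), and the list had a median of 0.21 at 1 h, 0.85 at 4 h and 0.61 at 8 h. Ccl2, Ccl3, Ccl4, Cxcl1 and Cxcl10 were under the filter's cutoff in the control, and without these 5, a choice made after the values were seen, the medians were -0.04, -0.0051 and 0.51. Ptgs2, Gadd45b, Ccl3 and Ccl4 respond to other pathways as well, and the part of NF-kB in their levels was not tested.

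**Figure D5:**
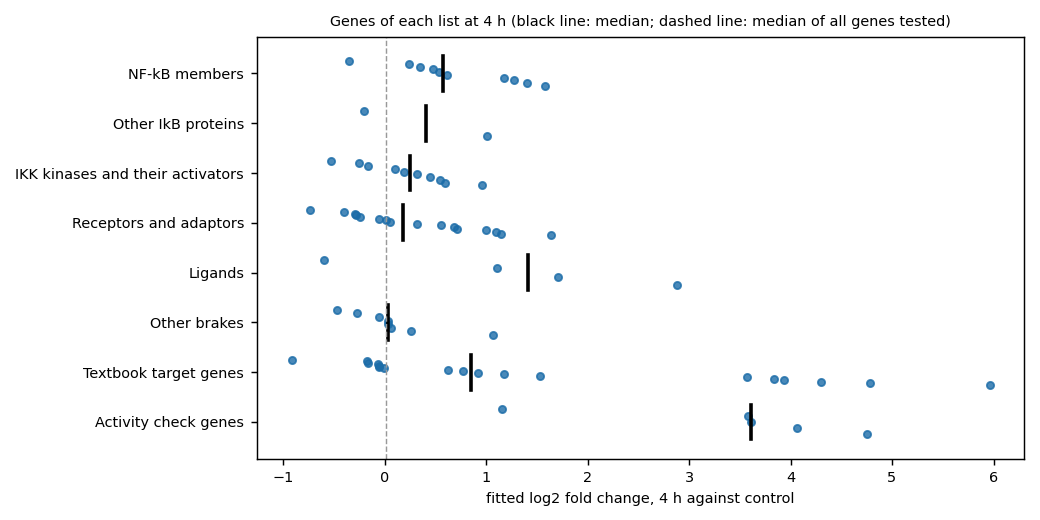
Each point is the fitted log2 fold change of a gene at 4 h against the control, by list, with a black line at the list's median and a dashed line at the median of all genes tested (0.0098). The 10 NF-kB genes have a median of 0.57 (0.53 without Bcl3) and the textbook target genes one of 0.85 (-0.0051 without the 5 that were under the filter's cutoff in the control). Genes at 0 in the control are drawn at values that depend on the prior count.

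Markers of the cell types in the tissue were also compared. The 7 neuronal markers summed to 3929 CPM in the control and to 1.05, 1.09, 0.982 and 0.894 times that at 1 h, in replicates 1 and 2 at 4 h, and at 8 h, with Snap25 as the most abundant. Within this list Prox1, a granule cell marker, was higher at 4 h (log2 fold change 1.28 ± 0.27, DESeq2 adjusted p of 0.0139, edgeR 0.275) and Rbfox3 lower (-0.53). Gad1 (0.80) and Gad2 (0.58) were also higher at 4 h, called by neither tool, and Slc17a7 was lower (-0.24). Of the 7 neuronal markers, 4 had log2 fold changes above 0 at 4 h and 3 below 0. Microglial markers ranged from C1qa (0.41) to P2ry12 (-1.003 ± 0.25, edgeR adjusted p of 0.319) at 4 h. Markers of infiltrating leukocytes were near 0, among them S100a9 (0.553 CPM in the control, 1.14 at 1 h, 0.594 and 0.846 in the 4 h pair and 0.856 at 8 h) and Ccr2 (5, 3, 9, 1 and 15 counts in the same order).

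Endothelial markers summed to 0.945, 1.43, 0.859 and 1.17 times their control level of 98.2 CPM, with Flt1 as the most abundant and replicate 1 the highest. Cdh5 was highest among them at 4 h (1.23; 5.33 CPM in the control, 18.1 in replicate 1 and 7.19 in replicate 2) and Tek lowest (-0.98; 13.3, 7.19 and 6.19 CPM). The 4 pericyte and smooth muscle markers, led by Rgs5, were at 0.946, 0.904, 1.02 and 0.842 times the control. The 6 astrocyte markers, led by Aldoc, were at 1.06, 1.38, 1.29 and 1.18 times. Within them Gfap was at 221 CPM in the control and 596, 510 and 587 in the libraries at 4 h and 8 h (DESeq2 adjusted p of 0.000443 and 0.00790). Gja1 went the other way at 8 h, with 195 CPM in the control and 98.6 at 8 h (log2 fold change -0.98). At 8 h, 3 of the 6 astrocyte markers had log2 fold changes above 0 and 3 below 0. The 5 oligodendrocyte markers, led by Mbp, were at 1.25, 1.18, 1.52 and 1.01 times, and the 4 blood markers, led by Hbb-bs, at 0.846, 1.77, 1.12 and 1.36 times. No marker of neurons, endothelium, pericytes, astrocytes, oligodendrocytes, choroid plexus or blood was at 0 in any library. Blood and endothelial sums were, like the levels of Nfkb2, Nfkbiz and Bcl3, higher in replicate 1 than in replicate 2, and their part in those differences was not tested. The levels of Nfkbia and Relb, by contrast, were within 1.1-fold and 1.06-fold of each other in the replicates.

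The genes nearest in profile were sought among 14297 genes that reached 50 normalized counts in any library, by the distance between centred log2 CPM values over the 5 libraries, for the 3 genes with the widest range. For Bcl3 (range 2.71 on the log2 scale) they were Gm44901, the collagen gene Col3a1 and Cdca7l, at distances of 0.585, 0.703 and 0.756. For Nfkb2 (1.67) they were Gm38120, Gm44802 and Dysf, at 0.117, 0.128 and 0.173. For Rel (1.65) they were C730034F03Rik, Ppp1r3c and Tet2, at 0.0885, 0.198 and 0.208. Tet2 was at 57.4 CPM in the control, 82.3 at 1 h, 159 and 105 in the 4 h pair and 75.4 at 8 h, in the same order of libraries as Rel. Dysf was at 1.76, 2.62, 5.40, 2.59 and 3.82 CPM, with replicate 1 the highest, as in Nfkb2.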

How the data were processed

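Stranded total RNA libraries were made by the authors, and the submitters' processing notes name STAR 2.5.1b, HTSeq and GRCm38.p4. The deposited values were raw counts of reads per gene, with no normalization. The sources used here do not give the strand setting, annotation release or HTSeq version. Reads on no gene made up 24.7%, 29.0%, 33.1%, 25.3% and 30.9% of all reads in the control, 1 h, 4 h (replicates 1 and 2) and 8 h libraries and stayed out of library sizes and tests, as did ambiguous and multiply aligned reads.

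From the counts, edgeR 4.0.16 in R 4.3.3 was used with its filter on low counts, TMM scaling and the quasi-likelihood test on the 5 libraries in 4 groups, which left 1 residual degree of freedom, with Benjamini-Hochberg adjustment over all 19768 genes and a threshold of 0.05. Log2 fold changes used a prior count of 2. Their SEs were derived from the coefficients of the same fit without a prior count, so they do not belong exactly to the printed values. For Bcl3 at 4 h the value was 1.58, and 1.87 with a prior count of 0.125. DESeq2 1.42.0, limma-voom (limma 3.58.1), other size factors, library size alone, other filters, a prior count of 0.125 and the omission of each 4 h replicate were alternatives. DESeq2 gave an adjusted p to 12486, 14019 and 14019 genes at 1 h, 4 h and 8 h against the control and could call no others. The procedure was tested on simulated data. Exon lengths and gene positions came from GENCODE release M21 (GRCm38), where the 10 identifiers had the same versions. Intervals are exact (Poisson or binomial, 95%, scipy 1.17.1) and cover counting error only, and 3 counts served as the floor for a count of 0.

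The members and lists were chosen with earlier results of these data known. From each list the 3 highest and 2 lowest log2 fold changes at 4 h among genes that reached 50 normalized counts in any library were named, with any gene past the threshold. Some listed cell type markers, and the sums of the microglial and leukocyte lists, are not reported here.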

Additional observations from a re-analysis of the deposited data

Results flagged for a closer look

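Reads that fell on no gene lie outside the gene counts, and their share was above that of the control library (24.7% of all reads) in each kainic acid library. It was 29.0% at 1 h, 33.1% in replicate 1 and 25.3% in replicate 2 at 4 h, and 30.9% at 8 h. Replicate 1, which was above replicate 2 for each NF-kB gene followed here except Relb, had the highest share, and replicate 2 was close to the control. What these reads contain was not tested.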

How the results depend on the processing

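edgeR called 0, 1, 0, 1 and 0 genes at 1 h, 4 h and 8 h against the control, at 4 h against 1 h and at 8 h against 4 h. DESeq2 called 56, 238, 33, 109 and 129, limma-voom 0 in each (0 at 4 h and 0 at 4 h against 1 h), median-of-ratios size factors 0 in each, library size alone 57, 237, 22, 67 and 120, no filter on low counts 285, 1300, 279, 725 and 957, and at least 10 counts in every library 1, 0, 0, 0 and 0. Of the 10 genes DESeq2 called 1 at 4 h, and omission of the filter called 1 at 1 h, 2 at 4 h and 1 at 8 h against 4 h, where the edgeR count with the filter was 0. At an unadjusted p under 0.05, edgeR held 478, 2291, 892, 1569 and 1726 genes. Omission of the filter tests more genes, and the cause of the further calls was not tested. At 4 h, 2004 genes and 3 of the 10 were at least 1.5 times the control in both replicates, and 2735 to 4171 genes and 3 to 6 of the 10 with either replicate left out, since 1 library passes more easily than a pair.

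Of 290 tested values of single genes in the alternatives, 280 kept their sign and their side of the threshold, 5 passed it and 5 changed sign, all 5 close to 0: Relb at 4 h against 1 h (-0.0177 with library size alone), Nfkbib at 8 h against 4 h (0.0020 with library size alone), Tnfaip3 at 4 h against 1 h (0.0026 by DESeq2 and 0.0024 with median-of-ratios size factors) and Tnfaip3 at 8 h against 4 h (0.0192 with library size alone). The cause was not tested. Library size alone moved the median log2 fold change of all genes at 4 h from 0.0098 to -0.11, and no gene of the 10 changed sign against the control under it. With 1 replicate at 4 h left out no residual degree of freedom remained, so these are values with no test: the sign turned for 8 of the 50 pairs of gene and comparison, and against the control for Nfkbiz at 4 h (-0.08 without replicate 1). Bcl3 had no value with at least 10 counts in every library, and its adjusted p in DESeq2 was not given, so that its 5 values there are not among the 290. The other prior count changes no p, and 50 of 50 values kept their sign under it. Without genes under the filter's cutoff in the control, an alternative chosen after the values were seen, the median at 4 h moved from 1.41 to -0.59 for ligands, where 1 gene remained, and from 0.85 to -0.0051 for textbook target genes, and from 0.57 to 0.53 for the 10 genes.

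No paired analysis was possible because replicate numbers exist at 4 h alone. Depth limits Bcl3 most, with 3 to 29 counts. With 1 library per group outside 4 h, the differences at 1 h and 8 h have no replicate check. The control was also 1 library, so both replicates at 4 h were compared with the same unreplicated control.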
